A study of Mus musculus with 6 samples.

Results

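The RNA of 10 genes of the canonical Wnt pathway was followed in muscle stem cells (MuSCs), the Pax7-expressing cells that rebuild skeletal muscle fibres. The genes were taken by symbol from the 22706 genes of the deposited expression table: the ligand Wnt4, the Dickkopf family gene Dkk3, the Frizzled receptors Fzd1, Fzd4 and Fzd7, the co-receptors Lrp5 and Lrp6, Ctnnb1 (β-catenin), the DNA-binding factor Tcf7l2 and the feedback target Axin2. Each symbol matched 1 row, and all 10 passed the minimum mean of 5 that defined the 15915 genes tested. They were chosen by name, as the receptors, transducers and readouts of the pathway, with earlier results of these data known.

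The data came from RNA-seq of MuSCs sorted from mouse muscle and not cultured, in 3 groups of 2 libraries. Control mice were wild type. Mdx mice carry a loss-of-function mutation of the dystrophin gene (Dmd) and model Duchenne muscular dystrophy. Sirt6mKO/mdx mice carry the same Dmd mutation and in addition lack exons 4 to 6 of Sirt6, a gene for a NAD-dependent histone deacetylase, in the muscle lineage. That deletion was made on floxed Sirt6 alleles by a constitutively active Cre recombinase under the Pax7 promoter (Pax7-ICNCre), so it reaches every descendant of a Pax7-expressing cell and not only the adult stem cell. The strain of all groups is labelled C57BL/6, and the study states that its mice were kept on that background, although its mdx animals were obtained as a C57BL/10ScSn strain. Legends of the study name young adult male mice, with ranges of age that differ between them. Pooling of animals, the presence of Cre in control and mdx mice and the sorting gate of each group (Integrin-a7 with CD34, Pax7 zsGreen or a YFP reporter, each after removal of cells with Sca1, CD45 or CD31) are not given in the sources used here. The study describes its RNA-seq replicates as biological, and nothing ties a library to a single animal, so p-values measure the spread between these libraries.

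Wnt ligands are secreted glycoproteins that bind a Frizzled receptor together with Lrp5 or Lrp6. Without ligand, a destruction complex built on Axin and Apc marks β-catenin for degradation. When the receptors are engaged the complex is disabled, β-catenin enters the nucleus and acts through TCF/LEF factors, and Axin2 is induced as a negative feedback regulator. In skeletal muscle, canonical Wnt signals are known for their part in the commitment and differentiation of myogenic progenitors, and Fzd7 is known as a receptor of MuSCs.

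The sequences just upstream of Wnt4, Fzd7 and Axin2 are shown because these genes had the lowest log2 fold changes of the 10 in mdx against control. They are the plus strand of the mouse genome (RefSeq, GRCm38.p6), end at the base before the gene model of the table, and carry their CpG dinucleotides in capitals. The Wnt4 stretch, chr4:137277385-137277488, holds 104 bases with 16 CpG and a GC content of 83.7%. The Fzd7 stretch, chr1:59481897-59482146, holds 250 bases with 17 CpG and a GC content of 65.2%. The Axin2 stretch, chr11:108920099-108920348, holds 250 bases with 24 CpG and a GC content of 69.2%.
Wnt4: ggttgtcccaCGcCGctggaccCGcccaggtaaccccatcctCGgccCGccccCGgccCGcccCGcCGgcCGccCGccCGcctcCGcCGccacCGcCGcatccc
Fzd7: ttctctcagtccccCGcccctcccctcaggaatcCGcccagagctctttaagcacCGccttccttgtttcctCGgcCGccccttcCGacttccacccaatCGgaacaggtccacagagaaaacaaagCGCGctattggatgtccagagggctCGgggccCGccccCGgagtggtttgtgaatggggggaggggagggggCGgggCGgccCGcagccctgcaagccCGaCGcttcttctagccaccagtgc
Axin2: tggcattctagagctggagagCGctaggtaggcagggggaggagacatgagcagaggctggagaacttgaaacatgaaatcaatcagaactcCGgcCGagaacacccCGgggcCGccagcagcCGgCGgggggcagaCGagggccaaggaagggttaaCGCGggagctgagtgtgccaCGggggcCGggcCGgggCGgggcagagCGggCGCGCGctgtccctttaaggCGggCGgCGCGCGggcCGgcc

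RefSeq promoter windows, from 250 bases before to 50 bases after a RefSeq transcript start, were at hand for 7 of the 10 genes, with 9 windows in all. Their GC content ran from 42.0% to 84.3%, against a median of 52.7% over 32851 windows, and they held 7 to 51 CpG dinucleotides against a median of 7. Both Ctnnb1 windows and the second Tcf7l2 window lie inside the gene model of the table, and the Wnt4 window reaches into it beyond the usual 50 bases. Both minima, 42.0% and 7, belong to that second Tcf7l2 window, and the next lowest are 54.0% and 16, in Fzd1. Both TCF/LEF motifs searched, CTTTGAT and CTTTGAA, were absent from all 9 windows on either strand, and 8.65% of all windows held at least 1 of them. The motifs differ only in their last letter, and no match says only that these letters are not in these 300 bases. Lrp5, Lrp6 and Dkk3 had no entry.

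Approximate depth was 4397632 to 9745218 reads per library. The values are normalized read counts, which the authors made by dividing each library's counts by a size factor and rounding, so that 1 read was worth 0.655 to 1.862 units. MuSC markers were abundant in all 6 libraries: Pax7 lay between 2167 and 3236, and the 10 MuSC markers summed to 22036 to 29745. Markers of leukocytes were low by comparison, with sums of 97 to 215 over 10 genes and at most 19 for Ptprc (CD45). Fibro-adipogenic markers summed to 26997 to 46238 and smooth muscle and pericyte markers to 8979 to 13132, so by these lists the libraries were not free of RNA that other cells of muscle also express. The reanalysed sorts of the study were not fully pure. Sirt6 itself stood at 41 and 32 in control MuSCs, 33 and 40 in mdx MuSCs and 37 and 30 in Sirt6mKO/mdx MuSCs. The deleted exons are only part of the gene, so this value over the whole gene does not check the deletion. In these data the direction of every comparison with the third group rests on its label. By RT-qPCR the study found Sirt6 RNA higher in mdx than in control MuSCs, which these values do not show. Its PCR genotyping found the deletion efficient in MuSCs of Sirt6mKO mice without the Dmd mutation. Xist, an RNA of female cells, was 16772 and 12950 in control and at most 34 elsewhere, and Ddx3y, on the Y chromosome, was at most 8 in control and at least 1024 elsewhere. The control values go against male mice. Control libraries therefore differed from both mdx groups in sex-linked RNA as well as in genotype, and sex and genotype cannot be told apart in any comparison with control.

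Of the 10 genes, Ctnnb1 was the most abundant. Per kilobase of exon, its normalized read count averaged 436 over the 6 libraries and ranged from 349 to 509, above every library of every other gene. Lrp6 followed with 85.6, then Fzd4 with 56.0 and Lrp5 with 46.6. Fzd7 averaged 26.8 per kilobase, Tcf7l2 25.4, Wnt4 15.2, Fzd1 13.5, Axin2 9.63 and Dkk3 4.76. Below Ctnnb1, the 6-library ranges of neighbours in this order overlapped in every case, so the order of neighbours is not resolved. The order is that of the mean over groups that differ: in control Wnt4 stood at 32.3 per kilobase, above Tcf7l2 at 19.3.

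**Figure D1:**
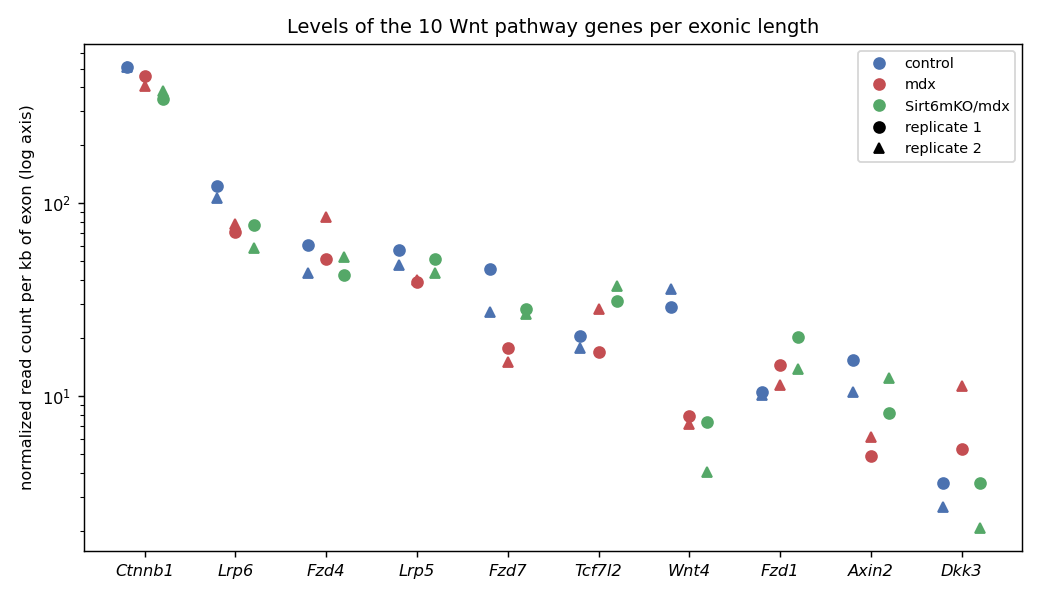
Normalized read count per kilobase of exon (log axis) of the 10 Wnt pathway genes in each of the 6 libraries, coloured by group, in order of their mean. Ctnnb1 spans 349 to 509 and stands clear of the rest, and the ranges of the other neighbours overlap.

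The 3 comparisons ask which RNA levels of the pathway differ in dystrophic MuSCs, which differ when Sirt6 is also deleted, and how far those of the double mutant lie from wild type. In mdx against control, Wnt4 fell 4.18-fold and Fzd7 fell 2.14-fold. They were 2 of 10 genes called lower, where 7.34% of the 15915 tested genes were called lower. No member was called higher, where 6.89% of all tested genes were. Unadjusted p-values of limma were under 0.05 for 4 members, all lower: Wnt4, Fzd7, Axin2 and Lrp6. The share of all tested genes under that value was not counted, so nothing is read from such counts. Between mdx and Sirt6mKO/mdx, limma called 0 members in either direction, and 1, Fzd7, had an unadjusted p under 0.05. The voom method of limma on approximate reads also called 0. The share of tested genes called there was 5.62% higher and 2.54% lower. Against control, Wnt4 alone was called in Sirt6mKO/mdx, 5.66-fold lower, as 1 of 10 where 2.68% of tested genes were called lower and 5.19% higher. Unadjusted p-values were under 0.05 there for 3 members, Wnt4 and Lrp6 lower and Tcf7l2 higher. A gene was called when its adjusted p was at most 0.05 and its change was at least 2-fold, both on the log2(value + 1) scale of the limma fit. Adjusted p-values are Benjamini-Hochberg values over all tested genes.

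The libraries of mdx and control did not overlap for 8 of the 10 genes, 6 lower and 2 higher in mdx, against 57.0% of all tested genes. For Sirt6mKO/mdx against mdx it was 6 of 10, with 4 higher and 2 lower, against 56.0%. For Sirt6mKO/mdx against control it was 5 of 10, with 2 higher and 3 lower, against 51.6%. Lack of overlap is thus common among all genes with 2 libraries a group, and nothing is read from it alone. The median log2 fold change of the 10 genes was -0.32, 0.05 and -0.24 in the 3 comparisons, beside 0.00, 0.02 and 0.01 over all tested genes. Some directions and calls depend on the authors' scaling of the libraries. With each library scaled to the same total, the median of all genes moved to -0.58 in both comparisons of Sirt6mKO/mdx, and all-gene calls became 479 higher and 2932 lower against mdx, from 895 and 405. Against control they became 455 higher and 2692 lower, from 826 and 427. On that scale Fzd1 (-0.25) and Lrp5 (-0.37) changed sign against mdx, Axin2, Fzd7 and Tcf7l2 were 0.25, 0.12 and 0.01 against mdx, Fzd4 was called lower against mdx, and Ctnnb1 and Lrp6 were called lower against control beside Wnt4. The comparisons share libraries, so their values are given side by side and are not independent of each other.

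**Figure D2:**
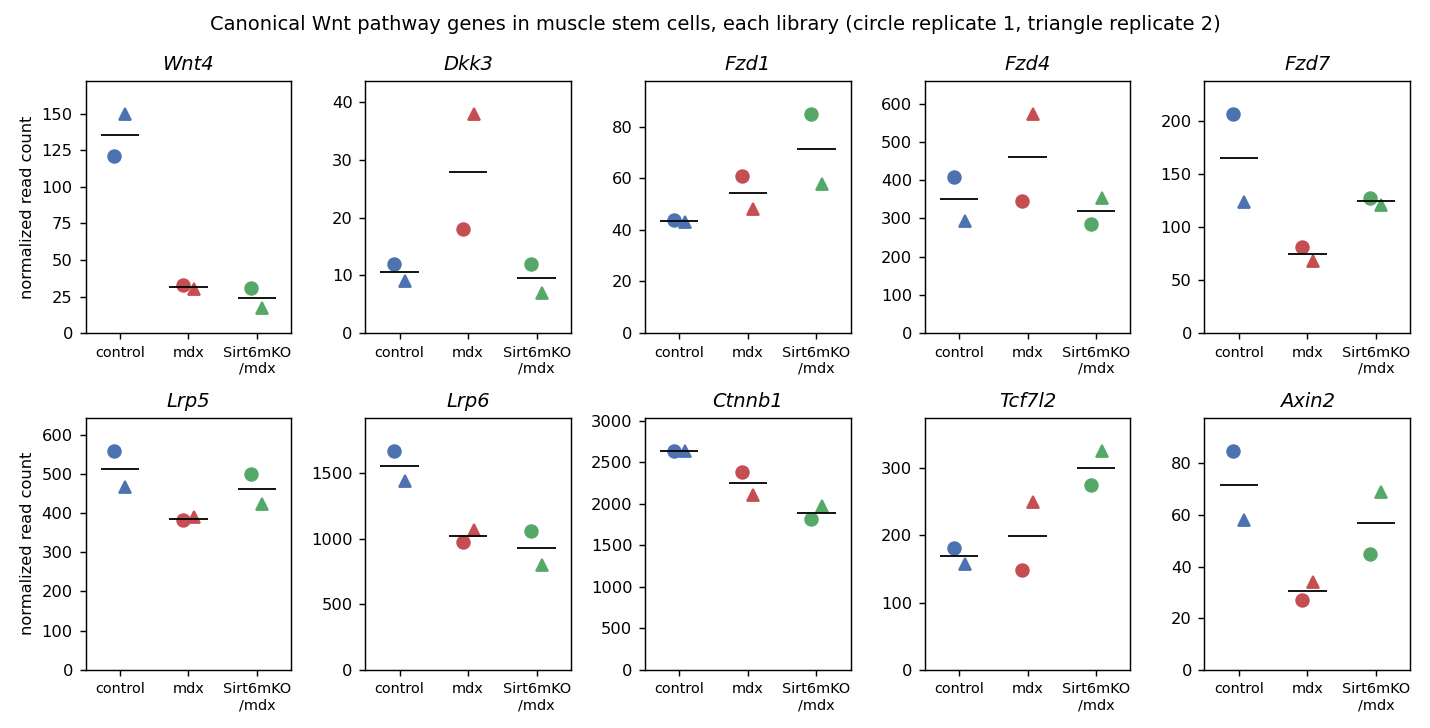
Normalized read count of each of the 10 genes in the 6 libraries, 1 panel a gene with its own axis; points are libraries and horizontal lines group means. Wnt4 is at 121 and 150 in control and at most 33 in the other 4 libraries.

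Wnt4 (ENSMUSG00000036856) lies on chromosome 4 at 137277489 to 137299726, plus strand, with 5 exons after merging of transcripts. It encodes a secreted Wnt ligand that acts on canonical and other Wnt branches. Its normalized read count was 121 and 150 in control MuSCs, 33 and 30 in mdx MuSCs and 31 and 17 in Sirt6mKO/mdx MuSCs. Both control libraries were high, both mutant groups were low, and neither mutant group overlapped control, while the mutant groups overlapped each other. The fall in mdx was 2.06 on the log2 scale (SE 0.47, adjusted p = 0.00793). Against control, Sirt6mKO/mdx libraries were also lower, with a log2 fold change of -2.50, a SE of 0.47 and an adjusted p of 0.0042. Control also differed from both mutant groups in sex-linked RNA, so sex and genotype cannot be told apart in these calls. The difference of Sirt6mKO/mdx from mdx did not pass, with a log2 fold change of -0.44 and a 95% interval from -1.44 to 0.57. The counts behind these values were small, at about 80 and 195 reads in control and 9 to 50 reads in the other libraries. With a single library left out, the log2 fold change stayed between -2.22 and -1.91 for mdx and between -2.91 and -2.08 for Sirt6mKO/mdx, but the adjusted p rose above 0.05 without control replicate 2 (0.0533 for mdx and 0.0579 for Sirt6mKO/mdx). It also rose to 0.0607 and 0.061 without mdx replicate 1 and without mdx replicate 2, and to 0.0952 without Sirt6mKO/mdx replicate 2. In bulk RNA, fewer cells that express a gene and less RNA in each cell cannot be told apart, which holds for every gene here.

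Dkk3 (ENSMUSG00000030772, chromosome 7, 112116019 to 112159057, minus strand) belongs to the Dickkopf family of secreted Wnt modulators but is a divergent member. Its mean over the 6 libraries was the lowest of the 10 genes. Per kilobase in mdx it averaged 8.34, above Wnt4 at 7.51 and Axin2 at 5.54. Its normalized read count was 12 and 9 in control MuSCs, 18 and 38 in mdx MuSCs and 12 and 7 in Sirt6mKO/mdx MuSCs. Both mdx libraries lay above all others and differed from each other by more than the other groups did. With 4 to 49 reads a library, the log2 fold change of 1.26 in mdx against control had a 95% interval from -0.33 to 2.84 (adjusted p = 0.272). For Sirt6mKO/mdx against mdx it was -1.42, with an interval from -3.00 to 0.17 (adjusted p = 0.252), and against control -0.16 (adjusted p = 0.928). No difference of Dkk3 passed the test, with these reads and 2 libraries a group. Mesenchymal cells also express Dkk3. Of 10 markers of fibro-adipogenic progenitors, 8 had a higher value in mdx than in control, with 2 called higher, 1 called lower and a median log2 fold change of 0.68. Among them Pdgfra was 15 and 59 in control MuSCs, 195 and 18 in mdx MuSCs and 142 and 19 in Sirt6mKO/mdx MuSCs. The part of such cells in the values of Dkk3 was not tested.

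Of the Frizzled receptors among the members, Fzd7 was called only in mdx against control, and Fzd1 and Fzd4 did not pass the test. Fzd7 (ENSMUSG00000041075, chromosome 1, 59482147 to 59486947, plus strand) is a single-exon gene. Its normalized read count was 207 and 124 in control MuSCs, 81 and 68 in mdx MuSCs and 128 and 121 in Sirt6mKO/mdx MuSCs. The mdx libraries were the lowest and did not overlap either other group, and control replicate 1 stood above all others. In mdx against control the log2 fold change was -1.10, with a SE of 0.34 and an adjusted p of 0.0397. It lost the call without control replicate 1, where it was -0.73 with an adjusted p of 0.26, and without mdx replicate 1 or mdx replicate 2, with adjusted p-values of 0.136 and 0.185. For Sirt6mKO/mdx against mdx it was 0.74 with a 95% interval from 0.01 to 1.47 and did not pass (adjusted p = 0.195). Against control, Sirt6mKO/mdx libraries gave -0.36 (adjusted p = 0.568) and overlapped.

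Fzd4 (ENSMUSG00000049791, chromosome 7, 89404366 to 89410110, plus strand), the Frizzled that also binds the non-Wnt ligand norrin, had the highest value of the family per kilobase of exon. It stood at 408 and 292 in control MuSCs, 346 and 573 in mdx MuSCs and 286 and 354 in Sirt6mKO/mdx MuSCs, and every pair of groups overlapped. Its log2 fold changes of 0.37, -0.48 and -0.12 in the 3 comparisons had adjusted p-values of 0.427, 0.326 and 0.854. Without mdx replicate 2 the first was 0.00 and the second -0.12, and without mdx replicate 1 they were 0.73 and -0.85. Fzd1 (ENSMUSG00000044674, chromosome 5, 4753842 to 4758216, minus strand) was at 44 and 43 in control MuSCs, 61 and 48 in mdx MuSCs and 85 and 58 in Sirt6mKO/mdx MuSCs. Control was the lowest group and overlapped neither mutant group. The log2 fold changes of 0.31 in mdx against control and 0.37 in Sirt6mKO/mdx against mdx had adjusted p-values of 0.669 and 0.639. The largest, 0.68 in Sirt6mKO/mdx against control, had a 95% interval from -0.23 to 1.59 (adjusted p = 0.359).

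The co-receptors were both highest in control. Lrp6 (ENSMUSG00000030201, chromosome 6, 134446476 to 134566965, minus strand) encodes the co-receptor whose phosphorylated tail recruits Axin. It stood at 1675 and 1445 in control MuSCs, 973 and 1069 in mdx MuSCs and 1057 and 801 in Sirt6mKO/mdx MuSCs. Control did not overlap either mutant group, and the mutant groups overlapped. The log2 fold change was -0.61 in mdx against control (SE 0.25, 95% interval -1.14 to -0.07, adjusted p = 0.113) and -0.76 in Sirt6mKO/mdx against control (SE 0.25, interval -1.29 to -0.22, adjusted p = 0.0754), so neither passed. For Sirt6mKO/mdx against mdx it was -0.15 (interval -0.68 to 0.39, adjusted p = 0.761). Lrp5 (ENSMUSG00000024913, chromosome 19, 3584828 to 3686564, minus strand), its paralogue, stood at 559 and 466 in control MuSCs, 382 and 389 in mdx MuSCs and 500 and 424 in Sirt6mKO/mdx MuSCs. The mdx libraries were the lowest and overlapped no other group. Its log2 fold change was -0.40 in mdx against control (95% interval -0.92 to 0.11, adjusted p = 0.28) and 0.26 in Sirt6mKO/mdx against mdx (-0.26 to 0.77, adjusted p = 0.557). Sirt6mKO/mdx and control overlapped, with -0.15 (adjusted p = 0.764).

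Ctnnb1 (ENSMUSG00000006932, chromosome 9, 120929216 to 120960507, plus strand) encodes β-catenin, which transmits the signal and also links cadherins to the cytoskeleton. Its normalized read count was 2643 and 2640 in control MuSCs, 2387 and 2113 in mdx MuSCs and 1812 and 1977 in Sirt6mKO/mdx MuSCs. No groups overlapped, with control highest and Sirt6mKO/mdx lowest, yet no difference passed. The log2 fold change was -0.23 in mdx against control (95% interval -0.79 to 0.32), -0.25 in Sirt6mKO/mdx against mdx (-0.81 to 0.31) and -0.48 in Sirt6mKO/mdx against control (-1.04 to 0.08). Their adjusted p-values were 0.585, 0.606 and 0.283. Exons of Ulk4 on the other strand and of Mir7090 cover 15.06% of its exonic bases, where reads were excluded or may be shared. These are RNA levels, and the pathway controls β-catenin at the level of the protein, which was not measured here.

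Tcf7l2 (ENSMUSG00000024985, chromosome 19, 55741810 to 55933654, plus strand) encodes a TCF/LEF factor that carries β-catenin to its target genes. Its normalized read count was 181 and 157 in control MuSCs, 149 and 250 in mdx MuSCs and 275 and 326 in Sirt6mKO/mdx MuSCs. Both Sirt6mKO/mdx libraries lay above all others, and control and mdx overlapped. Its log2 fold change in Sirt6mKO/mdx was 0.83 against control (95% interval 0.19 to 1.46, adjusted p = 0.104) and 0.63 against mdx (-0.01 to 1.27, adjusted p = 0.205), and neither passed. The value against mdx ran from 0.26 without mdx replicate 1 to 1.0 without mdx replicate 2, and with the same total in each library the values were 0.22 and 0.01. In mdx against control it was 0.19 (adjusted p = 0.704). Tcf7l2 is also known from fibro-adipogenic progenitors, which carry Sca1, one of the surface proteins whose cells the sorts removed. The summed markers of those cells were 29557 and 36221 in control MuSCs, 46238 and 35853 in mdx MuSCs and 26997 and 34129 in Sirt6mKO/mdx MuSCs. Most of each sum was the collagen gene Col3a1. Of these 10 markers, 7 were higher and 3 lower in Sirt6mKO/mdx than in control, with a median log2 fold change of 0.44, and the 1 called was lower (Thy1). Against mdx, 5 were higher and 5 lower, with 1 called lower (Col1a1). Their part in the values of Tcf7l2 was not tested.

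Axin2 (ENSMUSG00000000142, chromosome 11, 108920349 to 108950783, plus strand) encodes a scaffold of the destruction complex and is the most widely used RNA readout of canonical Wnt signalling. It stood at 85 and 58 in control MuSCs, 27 and 34 in mdx MuSCs and 45 and 69 in Sirt6mKO/mdx MuSCs. The mdx libraries were the lowest and overlapped neither other group, and Sirt6mKO/mdx overlapped control. The log2 fold change in mdx against control was -1.19 (SE 0.46, 95% interval -2.17 to -0.21), and its adjusted p of 0.0916 missed the threshold. It ran from -1.46 to -0.91, the latter without control replicate 1, when a library was left out. For Sirt6mKO/mdx against mdx it was 0.86 (SE 0.46, interval -0.12 to 1.84, adjusted p = 0.261). Compared with control, Sirt6mKO/mdx gave -0.33 (adjusted p = 0.718). Axin2 rested on 29 to 75 reads a library, and 3.8% of its exonic bases are shared with Gm11670 on the other strand.

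**Figure D3:**
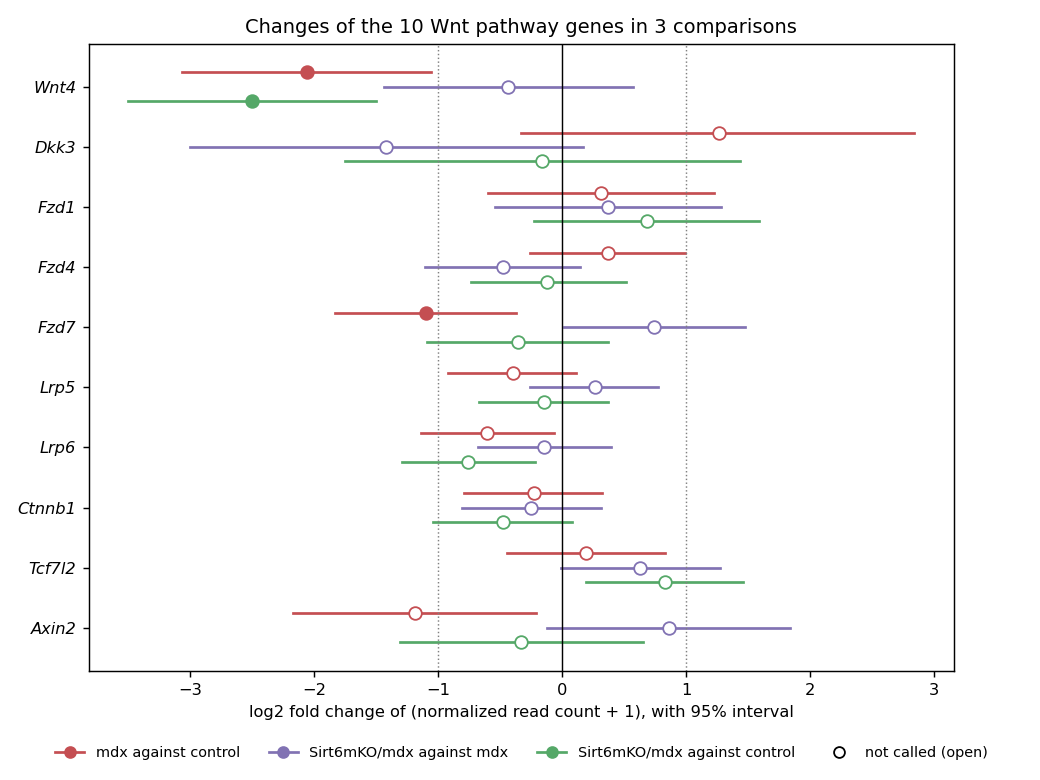
Log2 fold change of each of the 10 genes in 3 comparisons, with the 95% interval of limma; filled points are called and dotted lines mark a 2-fold change. Wnt4 is called in both comparisons with control, Fzd7 only in mdx against control, and all other points are open.

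The 3 genes whose pattern over the 6 libraries was most like that of Axin2 were sought among 9665 genes with a mean of at least 50, by the root mean square difference of centred log2 values. They were Tbrg4 (0.111), Zfat (0.123) and Mapkbp1 (0.147). Tbrg4 stood at 334 and 238 in control MuSCs, 103 and 145 in mdx MuSCs and 207 and 249 in Sirt6mKO/mdx MuSCs. All 3 genes were lowest in both mdx libraries, as Axin2 was. The likeness is a description, and the genes share the same 6 libraries with their depths and scaling.

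Other RNA moved with the same libraries. Of 20 immediate early genes (Fos, Jun, Egr1 and others), 18 were called lower in mdx against control, 19 were called higher in Sirt6mKO/mdx against mdx and 2 were called lower in Sirt6mKO/mdx against control. Their summed values were 85417 and 90680 in control MuSCs, 12592 and 14503 in mdx MuSCs and 76184 and 81915 in Sirt6mKO/mdx MuSCs. Fzd7, Lrp5 and Axin2, all lowest in mdx on the authors' scaling, have this order of groups, and Wnt4, low in both mutant groups, does not. None of Fzd7, Lrp5 and Axin2 was called between the mutant groups, and with the same total in each library Lrp5 was -0.37 there. Of 10 proliferation markers, 6 were called higher in mdx, where they summed to 817 and 1389 against 149 and 217 in control and 302 and 666 in Sirt6mKO/mdx libraries. Mki67 and Top2a were also called lower in Sirt6mKO/mdx than in mdx, and Bub1 higher than in control. Endothelial markers summed to 951 and 843 in control MuSCs, 441 and 458 in mdx MuSCs and 654 and 668 in Sirt6mKO/mdx MuSCs, with 2 of 8 tested called lower in mdx. Myofibre markers summed to 8310 and 10578, 6366 and 2134, and 12996 and 6190 in the same order, with 4 of 10 called lower in mdx and 4 called higher in Sirt6mKO/mdx against mdx. Of 10 MuSC markers, Sdc4 alone was called, lower in both mutant groups than in control and higher in Sirt6mKO/mdx than in mdx. Of 7 tested leukocyte markers 1 was called in each direction in mdx, and 1 was called higher in Sirt6mKO/mdx than in control. Schwann cell markers summed to 1341 to 3997 with 1 of 7 tested called lower in Sirt6mKO/mdx against control. Smooth muscle and pericyte markers summed to 8979 to 13132 with 1 called in each direction in mdx. Tagln was called lower in Sirt6mKO/mdx against mdx and against control, and Notch3 lower against control. The part of these shifts in the values of the 10 genes was not tested.

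The pathway was then viewed as a whole through 98 genes in 6 roles, of which 90 had a row and 72 were tested. Without the 10 members, 62 were tested. In mdx against control 5 of these were called lower (8.06%, beside 7.34% of all tested genes) and 3 higher (4.84%, beside 6.89%), with a median log2 fold change of -0.11. Against mdx, 5 were called higher in Sirt6mKO/mdx (8.06%, beside 5.62%) and 2 lower (3.23%, beside 2.54%), with a median of 0.39 beside 0.02. Of those called higher, Csnk1d, Gsk3a and Tle4 lost the call with the same total in each library. Against control, 1 was called in each direction in Sirt6mKO/mdx (1.61% each, beside 5.19% higher and 2.68% lower of all tested genes), with a median of -0.05.

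**Figure D4:**
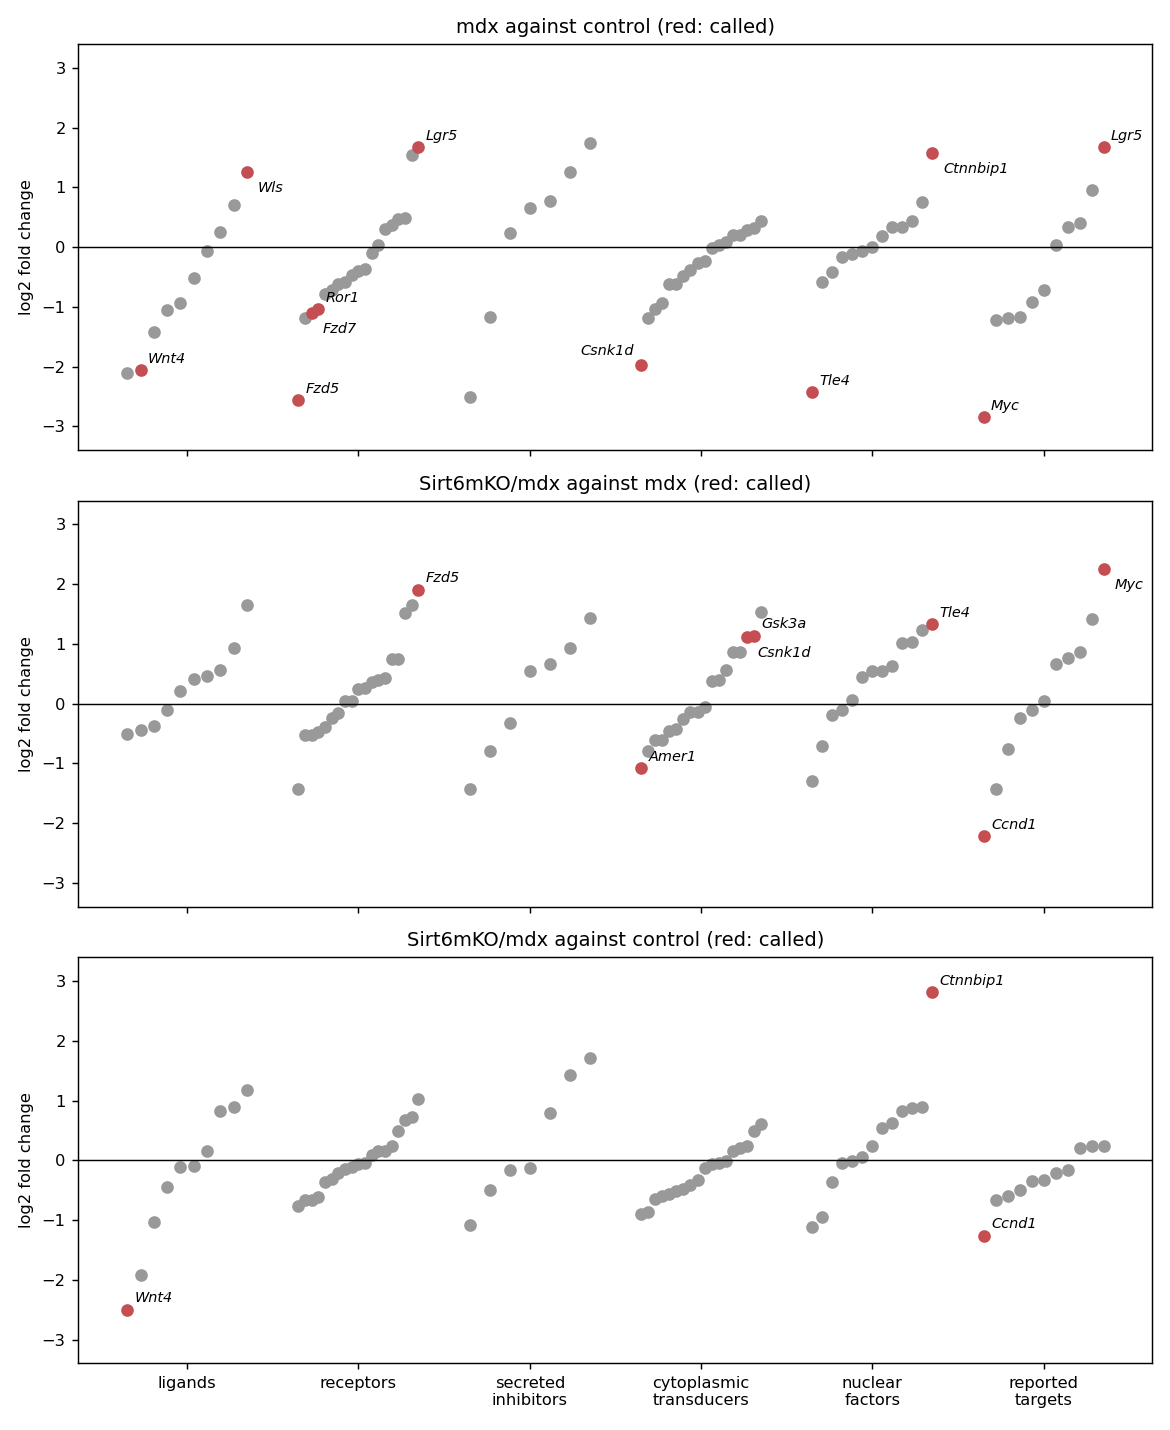
Log2 fold change of the 72 tested Wnt pathway genes in 3 comparisons, ordered within 6 roles; called genes are red and named. Lgr5 stands in 2 roles, as a receptor and as a reported target. Called genes lie on both sides of 0, and secreted inhibitors hold 0 of them.

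Among ligands and genes for their release, 1 of 10 tested was called higher and 1 lower in mdx. The lower gene was Wnt4. The higher gene was Wls, the carrier that brings Wnt proteins to the cell surface, at 341 and 294 in control MuSCs, 797 and 716 in mdx MuSCs and 509 and 674 in Sirt6mKO/mdx MuSCs. Both mdx libraries were above all others, and the log2 fold change in mdx was 1.25 (SE 0.25, adjusted p = 0.00325). That call was lost without mdx replicate 1. Of the other ligands Wnt9a had the highest mean, 39.5, and it was not called in any comparison. Wnt2, Wnt3a and Wnt9b were not analysed here.

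Among receptors and their regulators, 3 of 19 tested were called lower in mdx (Fzd5, Fzd7, Ror1; 15.8%, beside 7.34% of all tested genes) and 1 higher (Lgr5; 5.26%, beside 6.89%). Each other role held at most 1 called gene in each direction in that comparison. Fzd5, a Frizzled receptor, had the largest fall of the family. It stood at 186 and 109 in control MuSCs, 18 and 30 in mdx MuSCs and 101 and 80 in Sirt6mKO/mdx MuSCs. The mdx libraries were far below the rest, with a log2 fold change of -2.56 against control (SE 0.43, adjusted p = 0.000927). Fzd5 rose in Sirt6mKO/mdx against mdx by 1.91 on the log2 scale (SE 0.43, adjusted p = 0.013), a call kept only without mdx replicate 2 among the 4 fits that left out a library. The lowest value of this rise under any alternative was 1.29. Ror1, a receptor tyrosine kinase of the Wnt5a branch, stood at 1520 and 1235, 681 and 648, and 1086 and 741 in control, mdx and Sirt6mKO/mdx libraries. It was lowest in mdx, with a log2 fold change of -1.04 (adjusted p = 0.0131), a call that only the fit without control replicate 2 kept among the 4 that left out a library. Lgr5, an R-spondin receptor and Wnt target, was 30 and 17 in control MuSCs, 60 and 91 in mdx MuSCs and 36 and 20 in Sirt6mKO/mdx MuSCs. It was highest in the mdx libraries, with a log2 fold change of 1.67 (adjusted p = 0.0482), and lost the call in all 4 fits without a library.

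Of the 10 Frizzled genes, 9 were tested, and only Fzd5 and Fzd7 were called in any comparison. Per kilobase of exon, Fzd4 was the most abundant in every group, and Fzd7 fell from 36.5 in control to 16.4 in mdx. Fzd8, at 23.0, 21.3 and 25.4 per kilobase in control, mdx and Sirt6mKO/mdx, came next to Fzd4 in mdx and was not called in any comparison. Fzd2 stood at 18 and 19 in control and 56 and 56 in mdx libraries, without overlap, but its log2 fold change of 1.55 did not pass (adjusted p = 0.0545).

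Secreted inhibitors held 7 tested genes, and 0 were called by limma in any comparison. Only Sfrp4, a secreted Frizzled-related protein, had an unadjusted p under 0.05, in mdx against control, with a log2 fold change of -2.51 and an adjusted p of 0.0902. Dkk2 varied too much for a comparison, at 9 and 2 in control MuSCs, 36 and 8 in mdx MuSCs and 42 and 4 in Sirt6mKO/mdx MuSCs. The libraries of each group differed by more than 4 times.

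Among cytoplasmic transducers, 1 of 18 tested was called in mdx against control. This was Csnk1d, a casein kinase 1 isoform of broad function, at 2923 and 2284 in control MuSCs, 623 and 685 in mdx MuSCs and 1658 and 1221 in Sirt6mKO/mdx MuSCs. Its log2 fold change was -1.98 in mdx (SE 0.26, adjusted p = 0.000135) and 1.12 in Sirt6mKO/mdx against mdx (adjusted p = 0.0163). Gsk3a, a kinase of the destruction complex, was called higher in Sirt6mKO/mdx against mdx by 1.14 on the log2 scale (adjusted p = 0.0298), from 198 and 175 to 480 and 352. Amer1, an X-linked gene whose product brings Apc to the membrane, was called lower there with a log2 fold change of -1.08 (adjusted p = 0.0409), from 263 and 306 to 156 and 114. The calls of Csnk1d, Gsk3a and Amer1 between the mutant groups were each lost whichever library was left out. With each library scaled to the same total, Csnk1d and Gsk3a were 0.49 and 0.51 between the mutant groups and lost the call as well. Ctnnb1 and Axin2, the members in this role, were not called.

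Nuclear factors included 1 gene called lower and 1 called higher among 13 tested in mdx. Tle4, a Groucho co-repressor, stood at 341 and 302 in control MuSCs, 47 and 73 in mdx MuSCs and 121 and 182 in Sirt6mKO/mdx MuSCs. Its log2 fold change was -2.43 in mdx (SE 0.33, adjusted p = 0.00017) and 1.33 in Sirt6mKO/mdx against mdx (adjusted p = 0.0228). The second call was lost whichever library was left out and, with the same total in each library, where it was 0.70. The first was kept. Ctnnbip1, whose product (ICAT) blocks the binding of β-catenin to TCF factors, was 26 and 25 in control MuSCs, 60 and 101 in mdx MuSCs and 223 and 153 in Sirt6mKO/mdx MuSCs. No groups overlapped, with control lowest and Sirt6mKO/mdx highest. Its log2 fold change against control was 1.57 in mdx (SE 0.41, adjusted p = 0.0159), a call lost without control replicate 1 or mdx replicate 2. It was 2.81 in Sirt6mKO/mdx (SE 0.41, adjusted p = 0.000526), a call kept with each library left out.

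The other TCF/LEF genes did not pass the test. Tcf7l1 was 63 and 60 in control MuSCs, 52 and 62 in mdx MuSCs and 125 and 106 in Sirt6mKO/mdx MuSCs, which like Tcf7l2 put both Sirt6mKO/mdx libraries above all others. Its log2 fold change against mdx was 1.01 (SE 0.37, adjusted p = 0.105). Tcf7 stood at 68 and 32, 41 and 86, and 51 and 60 in control, mdx and Sirt6mKO/mdx libraries and overlapped throughout. Lef1 had a mean of 4.83 and was not tested.

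Among 11 tested genes reported elsewhere as Wnt targets, which many other signals also control, 1 was called lower (Myc) and 1 higher (Lgr5) in mdx. Myc, a growth regulator that is itself an early response gene, stood at 2072 and 1950 in control MuSCs, 314 and 246 in mdx MuSCs and 1288 and 1385 in Sirt6mKO/mdx MuSCs. The mdx libraries were the lowest, and Sirt6mKO/mdx lay between the other groups. Myc fell by 2.85 on the log2 scale in mdx (SE 0.24) and was 2.26 higher in Sirt6mKO/mdx than in mdx (SE 0.24, adjusted p = 4.47e-05), calls kept with each library left out. The lowest value of the second change under any alternative was 1.63. Ccnd1, the cell cycle gene cyclin D1, was 352 and 851 in control MuSCs, 930 and 1217 in mdx MuSCs and 207 and 251 in Sirt6mKO/mdx MuSCs. It was lowest in Sirt6mKO/mdx, with a log2 fold change of -2.22 against mdx (SE 0.34, adjusted p = 0.000937) and of -1.26 against control (adjusted p = 0.0315). The call against mdx was lost without Sirt6mKO/mdx replicate 1. With a library left out, the change against control ran from -1.90 to -0.62 and kept its call only without control replicate 1.

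**Figure D5:**
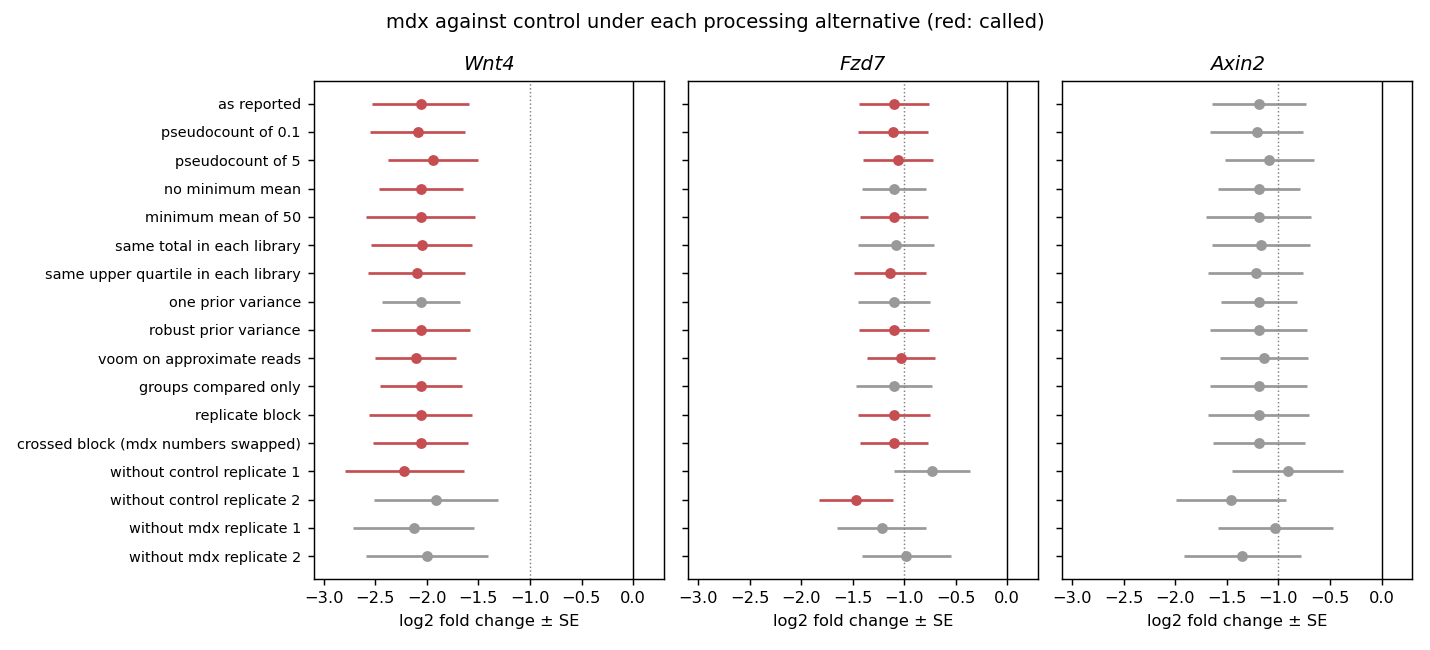
Log2 fold change of Wnt4, Fzd7 and Axin2 in mdx against control under each way of processing, with bars of 1 SE; red points are called and the dotted line marks a 2-fold fall. All points lie below 0, Wnt4 is called in 13 of 17 settings, Fzd7 in 10 and Axin2 in 0.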

How the data were processed

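MuSC RNA was depleted of ribosomal RNA and sequenced by Ion Torrent. Reads were trimmed by the authors (Reaper), mapped to GRCm38 (STAR) and counted per gene (featureCounts 1.4.5-p1), without reads on several genes or places, and the counts were divided by DESeq2 size factors. Use of strand is not given in the sources used here. The deposited values are these normalized read counts rounded to whole numbers, and were treated as a score and not as raw counts. Approximate reads are values multiplied by size factors recovered from the skipped and doubled whole numbers.

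Genes with a mean of at least 5 over the 6 libraries were tested with limma 3.58.1 (R 4.3.3) on log2(value + 1), with all groups in 1 fit, a prior variance that follows the mean, no block and two-sided Benjamini-Hochberg adjustment. This scale understates the change of scarce genes. The fit and the recovery of size factors were tested on simulated data. Values per kilobase used exon lengths of GENCODE M21, which held 98.53% of the gene identifiers. The 10 genes and all lists were chosen with earlier results of these data known. From the lists, called genes and relatives of the 10 were named, and Sirt6, Xist, Ddx3y and the 3 genes most like Axin2. Pax7, Ptprc, Pdgfra, Col3a1, Wnt9a and Sfrp4 were added after their values were seen. Protein motifs were not searched here. Alternatives changed the pseudocount, minimum mean, scaling, prior variance, model and libraries.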

Additional observations from a re-analysis of the deposited data

How the results depend on the processing

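The direction of the called members held under every alternative run: Wnt4 and Fzd7 in mdx against control, and Wnt4 in Sirt6mKO/mdx against control. Whether they passed the threshold did not hold. Members called in mdx against control (2 as reported) were 1 with no minimum mean, 1 with the same total in each library, 1 with only the compared groups in the fit, 0 with one prior variance, and 0 to 1 with a library left out. In Sirt6mKO/mdx against mdx (0 as reported) 1 was called with the same total. In Sirt6mKO/mdx against control (1 as reported) there were 0 with no minimum mean, 3 with the same total, 0 with one prior variance and 0 to 1 with a library left out. From the wider list, 10, 7 and 3 genes were called in the same order of comparisons. These became 6, 1 and 1 with no minimum mean, and 4, 0 and 0 with one prior variance. With the same total they were 14 and 17 of 72 tested in the comparisons of Sirt6mKO/mdx. Calls over all genes rose there to 3411 and 3147 of 15915. With a library left out they ran from 5 to 10, from 1 to 3 and from 1 to 3. Calls over all genes moved alike, from 2265, 1300 and 1253 to 989, 168 and 221 with no minimum mean and to 541, 0 and 87 with one prior variance. The cause of these changes was not tested.

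Changes of sign were confined to members not called in the comparison concerned. In mdx against control, Tcf7l2 ran from -0.18 (without mdx replicate 2) to 0.57 with a library left out. In Sirt6mKO/mdx against mdx, Fzd1 was -0.25 and Lrp5 -0.37 with the same total, and Lrp6 ran from -0.35 to 0.05 (without Sirt6mKO/mdx replicate 2). In Sirt6mKO/mdx against control, Fzd4 ran from -0.36 to 0.12 and was also above 0 without Sirt6mKO/mdx replicate 1 (0.04), Fzd7 ran from -0.73 to 0.01, and Dkk3 ran from -0.51 to 0.19. Dkk3 was 0.03 without control replicate 1, which also gave the upper end of Fzd4 and Fzd7. Dkk3 had no value at a minimum mean of 50.

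The replicate numbers were not shown to pair the libraries: deviations from the group means correlated at -0.13, 0.12 and 0.01 between groups. With a replicate block 2, 0 and 1 members were called, as without it, and calls over all genes were 2415, 1510 and 1404. Crossed numbers for mdx, added after seeing the data, gave 2 members and 2372 genes in mdx against control.

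With 2 libraries a group, a fit that left out a library assumed that the lone library varied like the others. Wnt4, Fzd7, Fzd1, Axin2 and Dkk3 rested on fewer than 200 reads in every library. Sex-linked RNA differed between control and both mutant groups, and the RNA of the Sirt6 deletion could not be checked.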
